A study of Homo sapiens with 3 samples.

Results

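The genes described here are 10 markers of liver progenitor cells and of stem-like liver tumour cells: the transcription factors SOX9, SOX4 and SALL4, the surface proteins CD24, GPC3, PROM1, CD44 and ANPEP, the secreted protein SPP1 and the keratin KRT19. They are the rows of the deposited expression tables that carry these 10 names, out of 61533 genes listed in each table. Polyadenylated RNA was sequenced from Hep3B, an established human hepatoma line labelled as wild type, with 1 library in each of 3 conditions: 1% oxygen with oxamate sodium, which blocks lactate dehydrogenase; 1% oxygen (hypoxia); and 20% oxygen (normoxia). The design text gives 48 hours and attaches it to the culture with oxamate; the oxamate dose is not given in the sources used here. All 3 cultures share the same line and medium, and a single tumour line cannot stand for liver progenitor cells. Since each condition has 1 library, differences could not be set against a spread between replicates, and no p-values were computed.

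As background, adult hepatocytes and bile duct cells descend from a common fetal progenitor, and cells with mixed features of both can reappear in injured or cancerous liver. SOX9 and KRT19 are known from bile duct and progenitor cells, while GPC3 and SALL4 are fetal liver genes that are silent in the adult liver and often return in hepatocellular carcinoma. PROM1 (CD133), CD24, CD44 and ANPEP (CD13) are surface proteins used to sort tumour cells that start new tumours. SPP1 encodes osteopontin, a secreted ligand of integrins and of CD44.

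The libraries held 24826365 fragments with oxamate, 26309340 in hypoxia and 27412147 in normoxia. Levels are given as CPM, fragments relative to the scaled library total, with 95% exact Poisson intervals where shown. Levels of different genes are compared per exon length, as the deposited FPKM. A ratio is called past the rule when it is 2-fold or more and the higher library has 50 fragments or more, and its 95% exact binomial interval, like the Poisson interval, covers counting error only. Of the 10 markers, 9 had enough fragments in every comparison, and CD44 had too few in all 3. The low oxygen label was borne out by 10 hypoxia-inducible genes, all past the rule and higher in hypoxia than in normoxia, with CA9 27.6-fold higher (23.7 to 32.3). The hepatoma label was borne out by ALB and AFP, at 6809 and 530 CPM with oxamate, 8887 and 1251 CPM in hypoxia, and 18298 and 1554 CPM in normoxia. Markers of other cell types were low or carried by 1 gene: PECAM1 held nearly all of the endothelial sum (20.1, 8.38 and 1.35 CPM over 6 markers with oxamate, in hypoxia and in normoxia), LYZ nearly all of the blood sum (60.3, 31.8 and 37.7 CPM over 7 markers), and 7 stellate and fibroblast markers summed to 31.3, 37.6 and 31.8 CPM. Markers at 0 in all 3 libraries were 2 of 6 endothelial, 4 of 7 blood and 2 of 7 stellate and fibroblast markers. KDR, CD3E, MS4A1, HBB and DCN were among them. The stellate and fibroblast markers COL1A1, PDGFRB, LUM and RGS5 had 50 fragments or more in some library. With oxamate, COL1A1 and PDGFRB were lower than in hypoxia past the rule (log2 -1.20 and -1.85), and LUM and RGS5 lay inside it (0.64 and -0.36).

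The first comparison asks how the markers differ at low oxygen. CD24 was higher and SPP1 lower past the rule in hypoxia than in normoxia, and the other 7 measured markers lay inside 2-fold. Over all 13549 genes measured in this comparison, 10.8% were higher and 8.07% lower, so 1 of 9 in each direction is close to the background. The median log2 ratio of the 9 markers was -0.25, against -0.12 over all genes. Adding oxamate gave a different set. SOX9 and SPP1 were higher and ANPEP lower past the rule with oxamate than in hypoxia alone, where 5.92% of 13733 genes were higher and 5.08% lower. The median log2 ratio of the markers was -0.08, against -0.01 over all genes. Between hypoxia with oxamate and normoxia, GPC3, SPP1 and ANPEP were lower and 0 markers higher, with 15.3% of 13597 genes lower and 15.4% higher in the background, and median log2 ratios of -0.06 for the markers and -0.11 for all genes. The split of all called genes depends on the scaling: 57.3% of them were higher in hypoxia than in normoxia, against 70.3% with scaling by total fragments and 70.9% by the upper quartile, and 50.1% were higher with oxamate than in normoxia, against 61.1% by the upper quartile. With oxamate against hypoxia, 813 genes were higher and 697 lower (53.8% higher), but 722 were higher and 802 lower (47.4%) with scaling by total fragments, which turned the direction of the split. These comparisons share libraries, so an unusual value in the hypoxia library alone would give opposite ratios in the first and the second.

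**Figure D1:**
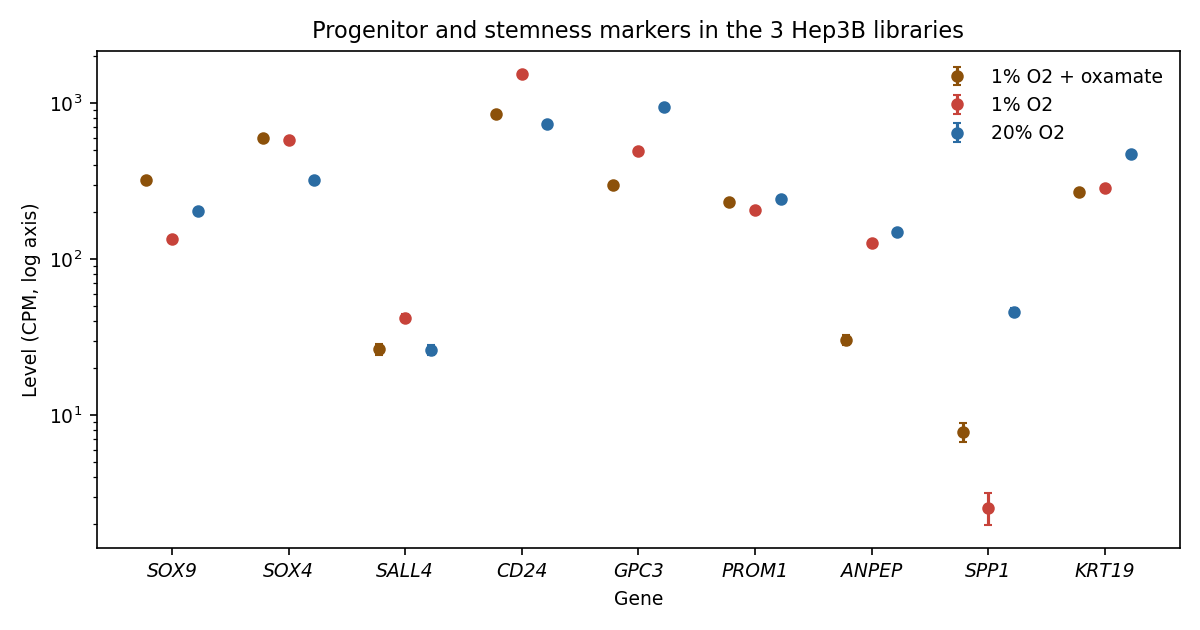
Levels of the 9 measured markers in the 3 libraries, in CPM on a log axis; points are single libraries and bars are 95% exact Poisson intervals, mostly smaller than the points. SPP1 is at 2.53 CPM in hypoxia and 46.1 CPM in normoxia, and CD24 reaches 1542 CPM in hypoxia.

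Among the transcription factors, SOX9 and SOX4 went separate ways. SOX9, a factor of the HMG-box family that marks bile duct and progenitor cells, lies on the plus strand of chromosome 17 from 72121020 to 72126416 (hg38). It had 8089 fragments, or 323 CPM (316 to 330), with oxamate, 3721 fragments, or 134 CPM (130 to 139), in hypoxia, and 5265 fragments, or 204 CPM (198 to 209), in normoxia. The oxamate library was therefore the highest and the hypoxia library the lowest, with no overlap between intervals. SOX9 was 2.4-fold higher with oxamate than in hypoxia alone (2.31 to 2.50), 1.51-fold lower in hypoxia than in normoxia (1.45 to 1.58), and 1.59-fold higher with oxamate than in normoxia (1.53 to 1.64). Of 11868 protein-coding genes measured in the oxamate step, 382 had a higher ratio than SOX9. SOX9-AS1, a noncoding gene annotated on the opposite strand with a span that overlaps that of SOX9, had 503, 215 and 157 fragments with oxamate, in hypoxia and in normoxia. It was 2.59-fold higher with oxamate than in hypoxia (2.20 to 3.05) and 1.28-fold higher in hypoxia than in normoxia (1.04 to 1.58). None of the exon bases of SOX9 (0%) lay in an exon of another gene of GENCODE 29, but the sources do not say whether the counting used strand, so the SOX9-AS1 values are uncertain.

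SOX4, a related HMG-box factor active in many progenitor cells and in the response to transforming growth factor beta, is a gene of 1 exon on the plus strand of chromosome 6 from 21593751 to 21598619. It had 598 CPM (589 to 608) with oxamate, 581 CPM (572 to 590) in hypoxia and 320 CPM (314 to 327) in normoxia. Both low oxygen libraries were high and the normoxia library low. The ratio of hypoxia to normoxia was 1.81 (1.76 to 1.86), just under the rule, and passed it when libraries were scaled by total fragments (log2 1.01) or by the upper quartile (1.03). Oxamate left it at 1.03 times the hypoxia level (1.01 to 1.05), a difference whose sign depended on the scaling. The balance of these factors inside a library does not depend on scaling between libraries. Per exon base, there were 0.669 SOX9 fragments for each SOX4 fragment with oxamate (0.651 to 0.688), 0.287 in hypoxia (0.277 to 0.297) and 0.787 in normoxia (0.760 to 0.815). Hypoxia alone thus had the least SOX9 relative to SOX4, and the library with oxamate lay nearer to normoxia.

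SALL4, a zinc-finger factor of embryonic stem cells and fetal liver that recruits the NuRD deacetylase complex, lies on chromosome 20 (51782331 to 51802521, minus strand). It was the lowest of the 3 factors per exon length, at 4.54 FPKM with oxamate, 7.29 in hypoxia and 4.57 in normoxia, or 663, 1171 and 678 fragments. Hypoxia was the high library, and the intervals of the other two overlapped. SALL4 was 1.61-fold higher in hypoxia than in normoxia (1.47 to 1.78) and 1.60-fold lower with oxamate than in hypoxia (1.45 to 1.76), both inside the rule. With oxamate it stood at 1.01 times the normoxia level (0.907 to 1.13). SALL4 pseudogenes in the tables (SALL4P1, SALL4P2, SALL4P5, SALL4P6 and SALL4P7) had 0 fragments.

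The surface proteins included the most abundant markers. CD24, a small heavily glycosylated protein held in the membrane by a lipid anchor and a ligand of inhibitory Siglec-10 on immune cells, lies on chromosome 6 (106969831 to 106975627, minus strand). It had 21219 fragments, or 848 CPM (837 to 860), with oxamate, 42685 fragments, or 1542 CPM (1528 to 1557), in hypoxia, and 19132 fragments, or 740 CPM (729 to 750), in normoxia. Hypoxia was the high library, and the other two lay close together. CD24 was 2.09-fold higher in hypoxia than in normoxia (2.05 to 2.12), the one marker past the rule in that direction. With oxamate it was 1.82-fold lower than in hypoxia (1.79 to 1.85), which does not pass the rule, and 1.15-fold higher with oxamate than in normoxia (1.12 to 1.17). By FPKM it ranked 56 with oxamate, 27 in hypoxia and 83 in normoxia among 19854 protein-coding genes. Its processed copies CD24P1 and CD24P2 held at most 2 fragments in a library. Other copies, and fragments that match both CD24 and a copy, were not examined.

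GPC3, a heparan sulfate proteoglycan anchored in the membrane that modulates Wnt and Hedgehog signalling, lies on the minus strand of the X chromosome from 133535745 to 133987100. It had 7475 fragments, or 299 CPM (292 to 306), with oxamate, 13616 fragments, or 492 CPM (484 to 500), in hypoxia, and 24426 fragments, or 944 CPM (933 to 956), in normoxia. The level was thus lowest with oxamate and highest in normoxia. Neither step alone passed the rule: GPC3 was 1.92-fold lower in hypoxia than in normoxia (1.88 to 1.96) and 1.65-fold lower with oxamate than in hypoxia (1.60 to 1.69). Across both, it was 3.16-fold lower with oxamate than in normoxia (3.08 to 3.24). Per exon base there were 0.332 GPC3 fragments for each CD24 fragment with oxamate (0.324 to 0.341), 0.301 in hypoxia (0.295 to 0.307) and 1.20 in normoxia (1.18 to 1.23). In normoxia GPC3 was therefore the more abundant of the pair, and at low oxygen CD24 was, with or without oxamate.

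PROM1, the pentaspan membrane glycoprotein CD133 found on membrane protrusions, lies on chromosome 4 (15963076 to 16084378, minus strand) and differed least among the measured surface markers. It had 234 CPM (228 to 240) with oxamate, 206 CPM (201 to 212) in hypoxia and 245 CPM (239 to 251) in normoxia. Its ratios were 1.19-fold lower in hypoxia than in normoxia (1.14 to 1.23), 1.14-fold higher with oxamate than in hypoxia (1.09 to 1.18), and 1.04-fold lower with oxamate than in normoxia (1.01 to 1.08), the last with a sign that depended on the scaling.

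ANPEP, aminopeptidase N or CD13, a zinc peptidase on the cell surface that trims peptides from their amino end, lies on chromosome 15 (89784895 to 89815401, minus strand). It had 760 fragments, or 30.4 CPM (28.3 to 32.6), with oxamate, 3497 fragments, or 126 CPM (122 to 131), in hypoxia, and 3872 fragments, or 150 CPM (145 to 155), in normoxia. The library with oxamate stood well below the other two. ANPEP with oxamate was 4.16-fold lower than in hypoxia (3.84 to 4.50) and 4.93-fold lower than in normoxia (4.56 to 5.33), and in hypoxia it was 1.18-fold lower than in normoxia (1.13 to 1.24). Of 11868 protein-coding genes in the oxamate step, 79 had a lower ratio. Measured against PROM1 in the same library, ANPEP stood at 0.192 per exon base with oxamate (0.178 to 0.207), 0.906 in hypoxia (0.868 to 0.945) and 0.905 in normoxia (0.869 to 0.942). CD44, the hyaluronan receptor, on the plus strand of chromosome 11 from 35138882 to 35232402, had 2 fragments with oxamate, 0 in hypoxia and 0 in normoxia. The upper ends of the 95% Poisson intervals were 0.289 CPM with oxamate, 0.133 CPM in hypoxia and 0.143 CPM in normoxia. The floor of 3 fragments, a separate limit for a count of 0, is 0.108 CPM in hypoxia and 0.116 CPM in normoxia, and no ratio is given.

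**Figure D2:**
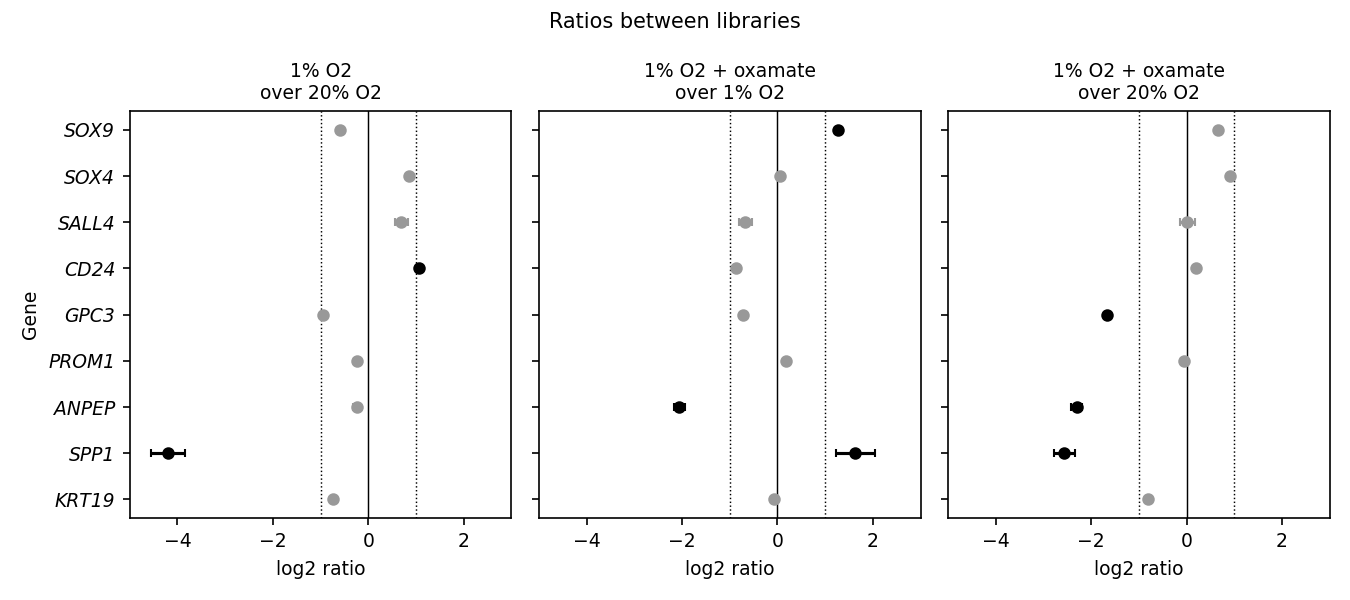
Log2 ratios of the 9 measured markers for hypoxia over normoxia, hypoxia with oxamate over hypoxia, and hypoxia with oxamate over normoxia; bars are 95% exact binomial intervals for counting error, dotted lines mark 2-fold, and black points are past the rule. SPP1 lies at -4.19, 1.62 and -2.56, and ANPEP at -0.24, -2.06 and -2.30.

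SPP1, the osteopontin gene on the plus strand of chromosome 4 from 87975667 to 87983532, showed the widest range. It had 195 fragments, or 7.80 CPM (6.74 to 8.97), with oxamate, 70 fragments, or 2.53 CPM (1.97 to 3.20), in hypoxia, and 1193 fragments, or 46.1 CPM (43.5 to 48.8), in normoxia. Both low oxygen libraries were far below normoxia, with hypoxia alone the lowest. SPP1 was 18.2-fold lower in hypoxia than in normoxia (14.3 to 23.6), and 7 of 11831 protein-coding genes had a lower ratio. It was 3.08-fold higher with oxamate than in hypoxia (2.33 to 4.11) and still 5.92-fold lower than in normoxia (5.08 to 6.92). The 70 fragments in hypoxia limit the precision of the first 2 ratios, and on the FPKM scale with a pseudocount of 1 the log2 ratio of oxamate to hypoxia was 0.62, inside the rule. The 4 other genes of the SIBLING family, to which osteopontin belongs (IBSP, DMP1, DSPP and MEPE), had at most 1 fragment in any library.

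KRT19, an acidic keratin of bile duct and other simple epithelia, lies on chromosome 17 (41523617 to 41528308, minus strand). It had 270 CPM (264 to 277) with oxamate, 285 CPM (279 to 291) in hypoxia and 476 CPM (467 to 484) in normoxia. Both low oxygen libraries were low, at 1.67-fold (1.62 to 1.72) below normoxia without oxamate and 1.76-fold (1.71 to 1.81) below it with oxamate, inside the rule. Its 5 listed pseudogenes (KRT19P1, KRT19P2, KRT19P3, KRT19P4 and KRT19P6) had 0 fragments. Relative to CD24 in the same library, KRT19 stood at 0.422 per exon base with oxamate (0.411 to 0.434), 0.245 in hypoxia (0.239 to 0.251) and 0.852 in normoxia (0.833 to 0.872).

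**Figure D3:**
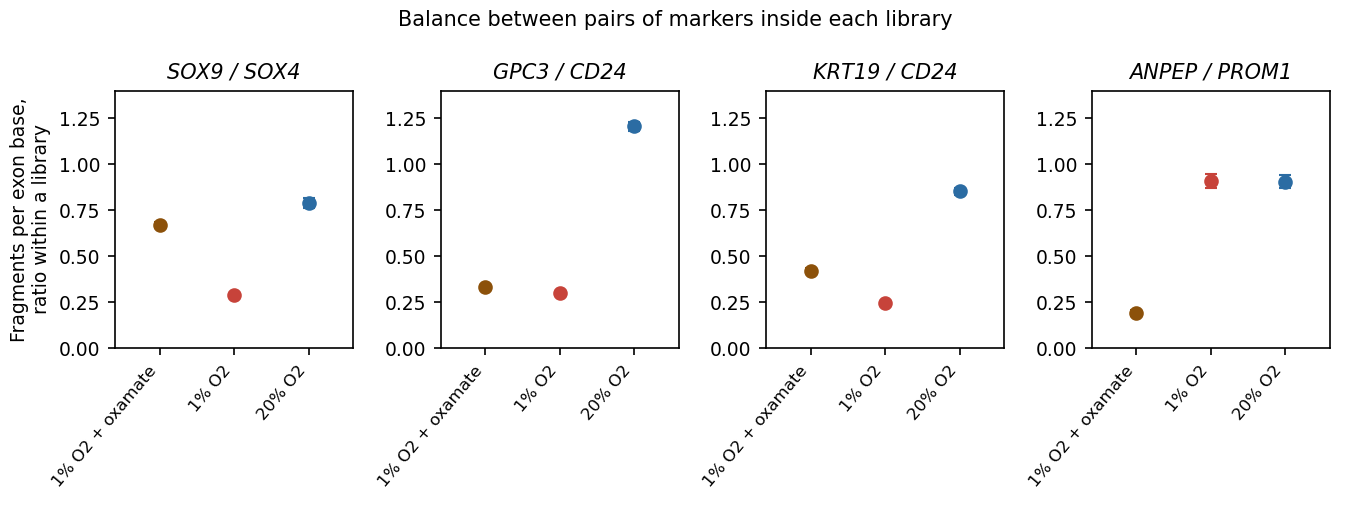
Ratio of one marker to another inside each library, as fragments per exon base, for SOX9 over SOX4, GPC3 over CD24, KRT19 over CD24 and ANPEP over PROM1; bars are 95% exact binomial intervals. SOX9 over SOX4 is lowest in hypoxia at 0.287, GPC3 over CD24 exceeds 1 only in normoxia at 1.20, and ANPEP over PROM1 is low only with oxamate at 0.192.

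By FPKM the order of the markers differed between libraries. With oxamate it ran from CD24 (271) through SOX4 (122), KRT19 (114), GPC3 (90.1), SOX9 (81.4), PROM1 (31.0), ANPEP (5.96), SALL4 (4.54) and SPP1 (1.06). In hypoxia it ran from CD24 (496) through GPC3 (149), KRT19 (121), SOX4 (119), SOX9 (34.0), PROM1 (27.5), ANPEP (24.9), SALL4 (7.29) and SPP1 (0.347). In normoxia it ran from GPC3 (289) through CD24 (240), KRT19 (205), SOX4 (66.2), SOX9 (52.1), PROM1 (33.0), ANPEP (29.8), SPP1 (6.40) and SALL4 (4.57). CD24 therefore led at low oxygen and GPC3 in normoxia, and SPP1 changed places with SALL4. These are bulk libraries, in which fewer cells of a type and less RNA per cell cannot be told apart.

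The sequence before the transcription start is shown for SPP1, ANPEP and CD24, the markers past the rule that have a RefSeq window, and for PROM1, which was not past it, since that is where factors that respond to low oxygen often bind. RefSeq windows (GRCh38.p14) were found for 6 of the 10 markers, in 12 entries. They were searched over the 250 bases before each start, on both strands, for ACGTG and GCGTG, the core of the hypoxia-inducible factor (HIF) site, and for AACAAT and AACAAAG, which SOX proteins bind. ACGTG also lies inside the E-box CACGTG. A HIF core was found in 8 of the 12 windows, against 43.2% of all 35116 windows, and a SOX site in 1, against 12.8%. Windows of one gene can overlap, so these counts are not independent. A core was found in all 4 PROM1 windows, in the SOX4 and CD44 windows, in 1 of 3 CD24 windows (the third, not printed) and in 1 of 2 ANPEP windows (the downstream one, not printed). The SPP1 window and the printed CD24 and ANPEP windows held none. A match does not say that a factor binds, nor its lack that none does. Capitals mark a match, which on the strand printed for PROM1 reads CACGT, and bases inside annotated exons are left out. The deposited gene totals do not separate transcripts by start. The stretches below are chr4:87975464-87975649 (plus strand) for SPP1, chr15:89814865-89815102 (minus) for the upstream start of ANPEP, chr6:106975628-106975877 (minus) for CD24 and chr4:16083733-16083977 (minus) for PROM1, each given 5′ to 3′ on the strand of its gene.
SPP1: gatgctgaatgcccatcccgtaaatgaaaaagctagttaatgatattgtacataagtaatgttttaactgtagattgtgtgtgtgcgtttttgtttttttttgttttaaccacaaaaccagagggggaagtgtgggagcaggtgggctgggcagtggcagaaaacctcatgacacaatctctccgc
ANPEP: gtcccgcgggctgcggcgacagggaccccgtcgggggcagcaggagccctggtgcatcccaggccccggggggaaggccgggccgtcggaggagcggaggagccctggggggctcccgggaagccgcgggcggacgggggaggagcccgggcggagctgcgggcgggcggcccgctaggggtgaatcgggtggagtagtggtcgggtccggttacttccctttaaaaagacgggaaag
CD24: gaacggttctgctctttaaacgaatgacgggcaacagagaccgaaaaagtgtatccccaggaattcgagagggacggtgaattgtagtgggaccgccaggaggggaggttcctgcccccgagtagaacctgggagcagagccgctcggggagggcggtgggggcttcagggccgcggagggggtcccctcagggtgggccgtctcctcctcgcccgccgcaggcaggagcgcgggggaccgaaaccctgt
PROM1: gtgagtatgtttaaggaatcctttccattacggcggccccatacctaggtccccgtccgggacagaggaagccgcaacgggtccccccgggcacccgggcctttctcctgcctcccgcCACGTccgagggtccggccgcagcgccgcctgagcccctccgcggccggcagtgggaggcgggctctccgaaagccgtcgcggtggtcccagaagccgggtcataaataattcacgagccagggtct

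Other genes known from hepatic progenitor and stem-like tumour cells were called in both directions. Of 20 listed, 10 were measured in hypoxia against normoxia, with 2 higher, 1 lower and a median log2 ratio of -0.26. In the oxamate step 11 were measured, with 1 higher, 4 lower and a median of -0.06. Over all genes, 10.8% were higher and 8.07% lower in the first, and 5.92% and 5.08% in the second. LGR5, a receptor for R-spondins and a Wnt target, followed the up-and-down course of CD24 with a wider range: it had 39.2 CPM with oxamate, 194 CPM in hypoxia and 56.3 CPM in normoxia. It was 3.44-fold higher in hypoxia than in normoxia (3.24 to 3.65) and lower with oxamate than in hypoxia by 4.94-fold (4.62 to 5.30). DLK1, a fetal surface protein, did likewise on few fragments (14, 77 and 5 with oxamate, in hypoxia and in normoxia). ALDH1A1, a retinaldehyde dehydrogenase, followed the course of GPC3, at 207, 601 and 1190 CPM, and with oxamate was 2.91-fold lower than in hypoxia (2.82 to 3.00). AFP, the fetal counterpart of albumin, with oxamate was 2.36-fold lower than in hypoxia (2.31 to 2.41), and in hypoxia it was 1.24-fold lower than in normoxia (1.22 to 1.26). ABCG2, a drug efflux pump of side population cells, was 5.21-fold lower in hypoxia than in normoxia (4.28 to 6.38) and 1.02-fold lower with oxamate than in hypoxia (0.782 to 1.34). ICAM1, an adhesion receptor, was 2.07-fold higher with oxamate than in hypoxia (1.995 to 2.15), and fell inside the rule when libraries were scaled by total fragments (log2 0.99). EPCAM, an epithelial adhesion protein, stood at 397, 413 and 586 CPM. THY1, NANOG and CACNA2D1 had 0 fragments in every library.

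**Figure D4:**
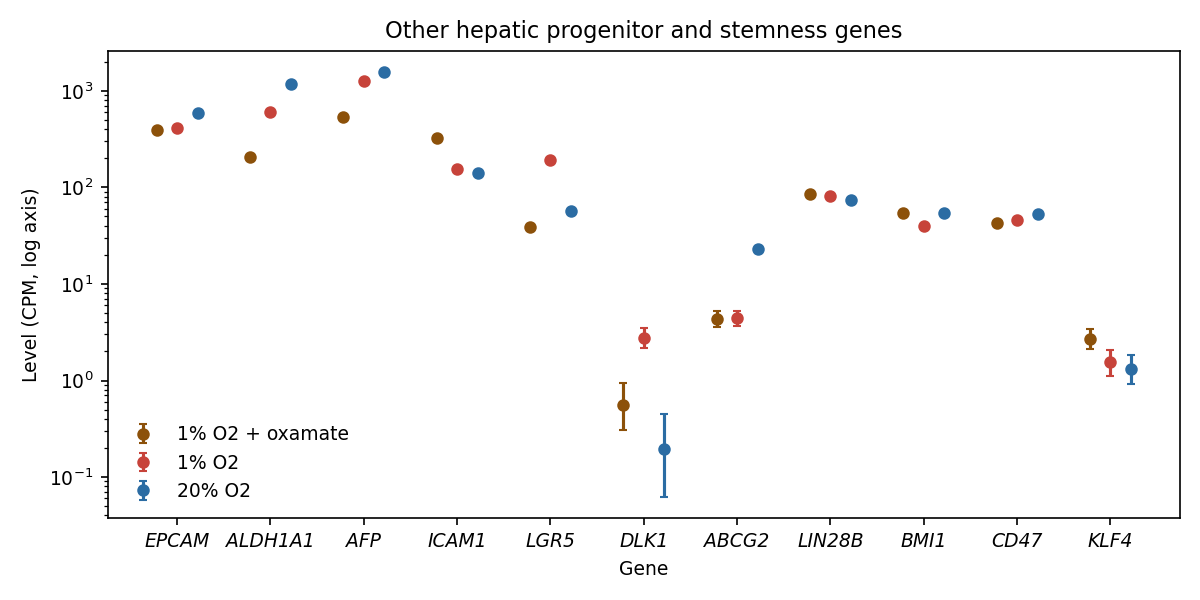
Levels of the 11 further progenitor and stemness genes with at least 50 fragments in some library, in CPM on a log axis; points are single libraries and bars 95% exact Poisson intervals. LGR5 is highest in hypoxia at 194 CPM, and ALDH1A1 is lowest with oxamate at 207 CPM.

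Of 19 relatives of the SOX and SALL factors, 8 had no fragment in any library. Of 7 measured in the oxamate step, 2 were higher and 2 lower, where 5.92% of all genes were higher and 5.08% lower. SOX5 and SOX6, members of the SOXD group that act with SOX9 in cartilage, were 7.14-fold (6.08 to 8.42) and 2.22-fold (2.13 to 2.32) higher with oxamate than in hypoxia, while they stood at 1.09 and 1.13 times the normoxia level in hypoxia. SALL2 with oxamate was 2.12-fold lower than in hypoxia (1.97 to 2.28). SOX12, which belongs with SOX4 to the SOXC group, was 2.46-fold lower in hypoxia than in normoxia (2.25 to 2.69), where SOX4 was higher. Of the 13 NuRD subunits listed as partners of SALL4, 0 passed the rule in either direction in any of the 3 comparisons. Among all genes, 18.9% passed it in hypoxia against normoxia, 11% with oxamate against hypoxia and 30.7% with oxamate against normoxia.

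Among the genes around SOX9 and SOX4 in the Notch, Hippo and transforming growth factor beta pathways, 21 were measured. In hypoxia against normoxia 4 were higher and 3 lower, where 10.8% of all genes were higher and 8.07% lower. With oxamate against hypoxia 2 were higher and 1 lower, where 5.92% of all genes were higher and 5.08% lower. CCN1 and CCN2, matricellular proteins and widely used targets of the Hippo effector YAP, were 4.65-fold (4.41 to 4.91) and 3.77-fold (3.61 to 3.95) higher, like SOX9. In hypoxia CCN2 was 2.22-fold lower than in normoxia (2.11 to 2.33), and CCN1 was 1.49-fold higher (1.38 to 1.61). The CCN2 call was lost when libraries were scaled by total fragments or the upper quartile (log2 as high as -0.98). With oxamate against hypoxia, YAP1 stood lower and WWTR1, TEAD1 and TEAD4 higher, all inside the rule (log2 -0.28, 0.63, 0.20 and 0.33). In hypoxia against normoxia, WWTR1 was higher and TEAD4 lower past the rule (log2 1.05 and -1.61). The activity of YAP was not tested. NOTCH1 was lower at both steps, 2.30-fold (2.06 to 2.57) in hypoxia than in normoxia and 2.31-fold (1.95 to 2.75) with oxamate than in hypoxia. The receptors did not move together: in hypoxia against normoxia NOTCH3 was higher past the rule (log2 1.496), and NOTCH2 lower inside it (-0.272). With oxamate against hypoxia both stood lower, inside the rule (log2 -0.788 for NOTCH3 and -0.173 for NOTCH2). RBPJ and DLL4 stood higher in hypoxia than in normoxia, inside the rule (log2 0.802 and 0.725). With oxamate against normoxia RBPJ was past it (log2 1.459). HES1, a target of Notch, stood at 46.6 CPM with oxamate, 33.5 CPM in hypoxia and 35.9 CPM in normoxia. SMAD3, which carries the transforming growth factor beta signal, was 3.50-fold higher in hypoxia than in normoxia (3.34 to 3.68) and TGFBR1, a receptor for that signal, 2.08-fold (1.92 to 2.25). TGFBR2 and SMAD2 stood lower there, inside the rule (log2 -0.53 and -0.07, the last with a sign that depended on the scaling).

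Of 10 other glypicans, syndecans and modifiers, 2 were higher and 0 lower in hypoxia than in normoxia, against 10.8% and 8.07% of all genes. Their median log2 ratio was 0.42, against -0.12 over all genes. GPC4 lies beside GPC3 on the X chromosome, from 133300103 to 133415489 on the same strand, and had 46.8 CPM with oxamate, 39.3 CPM in hypoxia and 2.44 CPM in normoxia. It was 16.1-fold higher in hypoxia than in normoxia (12.5 to 21.1), and GPC6 stood at 1.55-fold higher (1.49 to 1.62). GPC2 stood higher there, and GPC1 and GPC5 lower as GPC3 did, all inside the rule (log2 0.83, -0.76 and -0.39). With oxamate against hypoxia 3 of the 10 were higher and 2 lower, where 5.92% of all genes were higher and 5.08% lower. GPC5 was among the higher (log2 1.37) and GPC2 among the lower (-1.13). NOTUM, which releases glypicans from the membrane in cultured cells and inactivates Wnt proteins, was 2.37-fold higher with oxamate than in hypoxia (1.96 to 2.89). Of the syndecans, the other family of cell surface heparan sulfate proteoglycans, SDC1 with oxamate was 2.61-fold lower than in hypoxia (2.43 to 2.81), and SDC2 2.08-fold higher (2.004 to 2.16), which fell inside the rule when libraries were scaled by total fragments (log2 0.99).

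Some integrin subunits listed as osteopontin partners were present, while CD44 was near 0. The listed subunits ITGB3, ITGA4, ITGA8 and ITGA9 had fewer than 50 fragments in every library. ITGAV, the integrin alpha V subunit, had 873 CPM with oxamate, 1057 CPM in hypoxia and 269 CPM in normoxia, and was 3.93-fold higher in hypoxia than in normoxia (3.83 to 4.03), where its ligand SPP1 was lower. ITGB1, its beta 1 partner, stood at 1.87-fold higher (1.84 to 1.91; past the rule with scaling by total fragments or the upper quartile, log2 up to 1.07), and ITGB5 at 1.34-fold higher (1.29 to 1.38). On the list of osteopontin and CD44 partners, 14 genes were measured. In hypoxia 4 were higher and 0 lower (background 10.8% and 8.07%), with a median log2 ratio of 0.56 against -0.12 over all genes. With oxamate against hypoxia 2 were higher and 1 lower (background 5.92% and 5.08%), with a median of -0.03 against -0.01. The call for NF2, 1 of the 2 that were higher with oxamate, was lost with scaling by total fragments (log2 0.97). HAS2 and HAS3, which make the CD44 ligand hyaluronan, were among those higher in hypoxia. HAS2 had 223 fragments with oxamate, 116 in hypoxia and 2 in normoxia, and its ratio of hypoxia to normoxia was 54.2 with a wide counting interval (14.7 to 453). HAS3 was 3.99-fold higher in hypoxia than in normoxia (3.21 to 4.99). ESRP1 and ESRP2, splicing factors that set the CD44 isoform in epithelial cells, had 139 and 43.5 CPM with oxamate, 206 and 44.6 CPM in hypoxia, and 172 and 59.4 CPM in normoxia.

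Of 8 measured aminopeptidases and ectopeptidases, 0 were lower and 0 higher with oxamate than in hypoxia, against 5.08% and 5.92% of all genes. Their median log2 ratio was 0.11, against -0.01 over all genes. DPP4 (CD26), a dipeptidyl peptidase of the hepatocyte surface, had 127 CPM with oxamate, 87.8 CPM in hypoxia and 224 CPM in normoxia, and was 2.55-fold lower in hypoxia than in normoxia (2.44 to 2.68). LNPEP and ERAP1, aminopeptidases like ANPEP, stood at 1.24-fold (1.15 to 1.34) and 1.09-fold (0.982 to 1.22) higher with oxamate than in hypoxia. RNPEP, another aminopeptidase listed, was lower with oxamate, inside the rule against hypoxia (log2 -0.66) and past it against normoxia (-1.33). Of the 8 ratios of oxamate to hypoxia, 6 were above 1 and 2 below. Of 6 other keratins measured, 2 were higher and 1 lower in hypoxia than in normoxia, where 10.8% of all genes were higher and 8.07% lower. KRT8 and KRT18, the main keratin pair of hepatocytes, stood at 1.05-fold (1.03 to 1.06) and 1.06-fold (1.04 to 1.08) lower in hypoxia than in normoxia, with signs that depended on the scaling, and KRT7, the other bile duct keratin, had 15, 31 and 2 fragments with oxamate, in hypoxia and in normoxia. KRT23 stood at 1.81-fold lower in hypoxia (1.73 to 1.88), close to KRT19, and KRT80 was 5.65-fold higher (4.53 to 7.10).

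Of 10 hepatocyte identity genes listed, 1 was higher, 5 lower and 4 neither in hypoxia than in normoxia (median log2 ratio -0.81), where 10.8% of all genes were higher and 8.07% lower. The call for ALB was among the 5 and was lost with scaling by total fragments or the upper quartile (log2 as high as -0.87), which left 4 lower. With oxamate against hypoxia, 0 were higher, 6 lower and 4 neither (median -1.21), where 5.92% of all genes were higher and 5.08% lower. Their summed level was 12992 CPM with oxamate, 23731 CPM in hypoxia and 34014 CPM in normoxia. ALB, at the levels given above, held a large part of this sum in each library. The 6 cholangiocyte markers summed to 469 CPM with oxamate, 492 CPM in hypoxia and 658 CPM in normoxia, mostly EPCAM. Of these, SCTR, the secretin receptor, was 5.83-fold higher in hypoxia than in normoxia (4.81 to 7.11). The part of these levels in the marker results was not tested.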

How the data were processed

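Per the labels' protocols, poly(A) RNA from 3 µg of total RNA per culture was fragmented and primed with random hexamers. The authors' deposited values are FPKM, a unit read from the values since the file headers name only the library. Build hg38 and, as tools, edgeR 3.22.5, featureCounts 1.5.0-p3, StringTie 1.3.3b and HISAT2 2.0.5 were used per the submitters' processing notes, which assign them no steps; strand use is not given in the sources used here. FPKM multiplied by gene length was a whole multiple of 1 constant per library (100% of values above 0 within 0.01), and these whole numbers were used as fragments. The 21987 genes whose fragments summed to 10 or more set the scaling by trimmed mean of M values (factors 1.01 with oxamate, 1.05 in hypoxia, 0.943 in normoxia), written in Python 3.11.15 with pandas 2.3.3, statsmodels 0.14.6, scipy 1.17.1 and numpy 2.4.6, and tested on simulated data. Without molecular identifiers, fragments may be copies of one molecule, so intervals cover counting error only. Gene types and exon overlaps came from GENCODE 29 (58312 of 61533 identifiers matched). The members and the 15 gene lists were chosen with earlier results of these data known. Named genes were all members, the 2 protein-coding genes with the nearest pair of log2 ratios to each member past the rule, and up to 4 genes at the ends of each list, with 12 alternatives tried. Genes named outside that rule were chosen after their values were seen.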

Additional observations from a re-analysis of the deposited data

How the results depend on the processing

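In the 8 alternatives that recompute ratios, 0 of the marker ratios past the rule changed sign. The number of markers past the rule moved beyond 1.5 times at a 1.5-fold threshold, with 7 in hypoxia against normoxia, 6 with oxamate against hypoxia and 6 with oxamate against normoxia. Counts over all genes, higher and lower, moved with the cutoffs, as fewer or more genes can pass. In hypoxia against normoxia they were 559 and 581 with FPKM and a pseudocount of 1, 3618 and 1773 with 10 fragments in the higher library, 2530 and 2970 at 1.5-fold, and 944 and 665 with the whole interval beyond 2-fold. With oxamate against hypoxia they were 324 and 187, 2079 and 1867, 1880 and 1895, and 491 and 307 under the same settings in the same order. With oxamate against normoxia they were 1025 and 1325 with the pseudocount of 1, 3306 and 3905 at 1.5-fold, and 4350 higher with 10 fragments. Scaling by total fragments put the median over protein-coding genes at -0.01 (log2) in hypoxia against normoxia, where the main scaling gives -0.16, and gave 1775 higher and 751 lower genes (70.3% higher, against 57.3%). The upper quartile gave 70.9% higher there, and 61.1% with oxamate against normoxia, where the main scaling gives 50.1%. The cause of these moves was not tested. SOX4 passed the rule by total fragments (log2 1.01) and the upper quartile (1.03) in hypoxia against normoxia, and under the upper quartile with oxamate against normoxia (log2 1.06). SPP1 with oxamate against hypoxia left the rule with the pseudocount of 1 (log2 0.62), and 57 of 216 recomputed marker ratios lay outside their counting interval. With 1 library per condition no library could be left out. No paired analysis was possible because each condition has 1 library and the labels give no replicate numbers. CD44 and the 70 SPP1 fragments in hypoxia are at the limit of depth.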

Other observations

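Among 11205 other protein-coding genes with at least 100 fragments in some library and fragments in all 3, the genes nearest to each marker by its pair of log2 ratios (hypoxia over normoxia, oxamate over hypoxia) were as follows, over 3 libraries that share the hypoxia value. Nearest to SPP1 was BATF2, a bZIP transcription factor, at -4.21 and 1.59 on 19, 7 and 121 fragments with oxamate, in hypoxia and in normoxia, and then CTXND1 at -4.10 and 2.04. The distance to CTXND1 was 0.42 on the log2 scale. Nearest to ANPEP were SLC39A4, a zinc importer, at -0.27 and -1.89, and SLC22A31 at -0.44 and -2.20. Nearest to SOX9 were LRRC7 at -0.62 and 1.29 and KLB, a co-receptor of endocrine fibroblast growth factors, at -0.55 and 1.29. Nearest to CD24 were PLEKHG4B at 1.07 and -0.87 and EPB41L1 at 1.08 and -0.87. Nearest to GPC3 were NOL6 at -0.96 and -0.74 and DBP at -0.97 and -0.73.

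Together the 10 markers took 0.266% of all fragments with oxamate, 0.359% in hypoxia and 0.297% in normoxia. CD24 held 37.6%, 50.6% and 25.9% of their summed FPKM in those libraries, and GPC3 12.5%, 15.2% and 31.2%. GPC3-AS1, annotated opposite GPC3, had 1 fragment with oxamate, 1 in hypoxia and 13 in normoxia.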
